A study of Homo sapiens with 8 samples.

Results

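A set of 44 genes of the cell division cycle was followed through cytokine stimulation and 2 gene-trap mutants of KBM7, a near-haploid human chronic myeloid leukaemia line in which a single gene-trap insertion can disable a gene. The genes were chosen by name, and all probe sets whose platform annotation names 1 of them were taken: 123 of the 49395 probe sets, of which 122 name no other gene. These gave a value for 43 of the 44 genes, among 18132 genes in all; CDKN2C had none and was not analysed here. CCND1, the cyclin D1 gene, stayed in the background range on all 8 arrays, with its highest log2 value at 4.52, so 42 of the 44 members and 11529 genes in all were compared.

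One experiment set wild-type (WT) cells beside JAK2 gene-trap mutant cells, each with and without a 6 hour exposure to IFN-gamma (100 ng/ml); the other set WT beside TNFRSF1A gene-trap mutant cells, with and without 6 hours of TNF-alpha (10 ng/ml). JAK2 is a kinase that signals for the receptor of IFN-gamma, while the TNFRSF1A product is TNFR1, a receptor for TNF-alpha. All cells were KBM7 in log phase growth, each condition had 1 array, and unstimulated WT had 2: replicate 1 belongs to the experiment with IFN-gamma, replicate 2 to the experiment with TNF-alpha. Whether a mutant population is 1 clone, and whether the WT arrays came from separate cultures, is not given in the sources used here. Values are log2 intensities or log2 differences between 2 arrays. A difference of at least 1, which is 2-fold, counts as a change. It carries no p-value, because 1 array per condition leaves no replicate check and limits the precision. Over all genes compared, the WT arrays differed from each other by an SD of 0.38.

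The cell cycle is driven by cyclins, which activate cyclin-dependent kinases. D-type cyclins with CDK4 and CDK6, and then cyclin E with CDK2, inactivate the retinoblastoma protein RB1 and release E2F factors, which switch on the genes of DNA replication; CDKN1A and CDKN1B encode the kinase inhibitors p21 and p27. Genes of G2 and mitosis are switched on later, largely through CCAAT boxes and CHR elements in their promoters. Interferons and TNF-alpha are known to slow the division of many cell types.

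The targeted genes were lower in their mutants: the probe set for JAK2 had log2 values of 5.08 and 5.32, in the background range, on the JAK2 mutant arrays against 6.28 and 6.81 on the matching WT arrays, and that for TNFRSF1A had 6.56 and 6.55 on its mutant arrays against 9.36 and 9.23. The upper quartile of the background probe sets, below which a value is in the background range, ran from 5.76 to 6.04 over the arrays. Of 9 measured myeloid and progenitor markers, 5 (KIT, CD34, MYB, GATA2 and CEBPA) lay above that range on all arrays, while SPI1, ELANE and AZU1 lay in it on all of them. Among 13 measured markers of other cell types, 4 lay above that range on all arrays, CD3D, CD79A, HBB and KRT18.

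Promoter windows from RefSeq (GRCh38.p14), which span 250 bases before to 50 after a gene's start, were at hand for 35 of the 44 members; CCND2 was not among them. Motifs were searched on both strands. An E2F site, spelled TTTCGCGC, TTTGGCGC or TTTCCCGC, stood in a window of 7 of 10 S phase members, 4 of 12 G1 members and 1 of 13 members of G2 and mitosis, and in 3.3% of all 27305 genes with a window. A CHR element, TTTGAA or TTCGAA, stood in 10 of 13 members of G2 and mitosis, 2 of 10 S phase members and 1 of 12 G1 members, and in 19.5% of all genes. The CCAAT box was found in 12 of 13 members of G2 and mitosis, 8 of 10 of S phase and 6 of 12 of G1, and in 39.7% of all genes. Some genes have several windows, and a match is a description of letters, not a site in use.

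The windows below stand for the groups that follow: CCND3, the D-type cyclin gene that differed most between the unstimulated WT arrays; PCNA of S phase; and CDK1 and CDC20 of mitosis. Where a gene has several windows, that with the most matches is shown, or the first listed where counts were equal. CCND3 has another window with as many matches as the one shown. Capitals mark E2F sites, CHR elements and CCAAT boxes on either strand, and the windows lie at chr6:41941759-41942058 (minus strand), chr20:5126573-5126872 (minus strand), chr10:60778228-60778527 (plus strand) and chr1:43358731-43359030 (plus strand) of GRCh38.p14.
CCND3: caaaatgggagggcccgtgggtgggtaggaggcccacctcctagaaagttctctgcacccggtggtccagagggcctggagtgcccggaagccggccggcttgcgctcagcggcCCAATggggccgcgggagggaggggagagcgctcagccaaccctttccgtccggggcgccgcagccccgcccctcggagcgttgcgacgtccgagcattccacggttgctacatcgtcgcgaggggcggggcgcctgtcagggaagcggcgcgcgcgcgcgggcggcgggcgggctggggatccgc
PCNA: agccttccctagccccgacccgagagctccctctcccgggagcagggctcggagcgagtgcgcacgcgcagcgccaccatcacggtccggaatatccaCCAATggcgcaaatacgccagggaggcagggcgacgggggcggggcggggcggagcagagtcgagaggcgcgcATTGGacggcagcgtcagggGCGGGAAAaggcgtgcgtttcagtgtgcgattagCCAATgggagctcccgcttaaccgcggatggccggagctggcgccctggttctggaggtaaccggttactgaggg
CDK1: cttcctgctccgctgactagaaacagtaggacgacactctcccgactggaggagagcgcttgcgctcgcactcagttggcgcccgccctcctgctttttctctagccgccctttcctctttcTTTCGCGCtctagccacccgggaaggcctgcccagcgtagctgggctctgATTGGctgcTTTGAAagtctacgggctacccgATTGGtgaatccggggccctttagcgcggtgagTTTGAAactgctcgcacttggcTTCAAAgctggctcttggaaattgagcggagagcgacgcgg
CDC20: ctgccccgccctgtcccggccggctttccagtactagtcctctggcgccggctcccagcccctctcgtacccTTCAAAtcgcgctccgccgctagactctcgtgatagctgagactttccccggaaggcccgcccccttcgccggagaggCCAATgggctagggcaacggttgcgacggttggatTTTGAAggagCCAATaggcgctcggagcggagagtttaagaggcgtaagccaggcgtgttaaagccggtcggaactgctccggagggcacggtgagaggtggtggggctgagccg
In these windows CCND3 had 1 CCAAT box and no E2F or CHR match, PCNA had 1 E2F site and 3 CCAAT boxes, CDK1 had 1 E2F site, 3 CHR elements and 2 CCAAT boxes, and CDC20 had 2 CHR elements and 2 CCAAT boxes.

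The first question was whether either cytokine moved the cell cycle genes within 6 hours. No member of any phase changed 2-fold with IFN-gamma or TNF-alpha, in WT or in mutant cells. In WT cells with IFN-gamma the 42 members ran from -0.37 to 0.28, where 0.607% of all genes changed 2-fold. With TNF-alpha they ran from -0.41 to 0.32, where 0.321% of all genes changed 2-fold. In the JAK2 mutant with IFN-gamma they ran from -0.16 to 0.26, and in the TNFRSF1A mutant with TNF-alpha from -0.17 to 0.15, and there 0% of all genes changed 2-fold. At 1.5-fold the count of members was also 0 in these 4 comparisons, beside 1.52% and 1.17% of all genes in WT with IFN-gamma and TNF-alpha, 0.382% in the JAK2 mutant and 0.0434% in the TNFRSF1A mutant.

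Group medians lay near 0 in these responses. With IFN-gamma in WT the medians were -0.02 for the 14 G1 members, -0.03 for the 12 of S phase and -0.07 for the 16 of G2 and mitosis, beside -0.02 over all genes. With TNF-alpha in WT they were -0.03, -0.08 and -0.05, beside 0.01 over all genes. Of the S phase members, 11 of 12 lay below 0 with TNF-alpha, and of those of G2 and mitosis 12 of 16 lay below 0 with IFN-gamma; 48% and 57.8% of all genes did so in these comparisons. The further genes of these phases did not show it: 14 of 26 S phase genes lay below 0 with TNF-alpha and 16 of 29 genes of G2 and mitosis with IFN-gamma. In the JAK2 mutant with IFN-gamma the 3 medians were 0.02, 0.03 and -0.01, and in the TNFRSF1A mutant with TNF-alpha -0.01, 0.00 and -0.05.

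**Figure D1:**
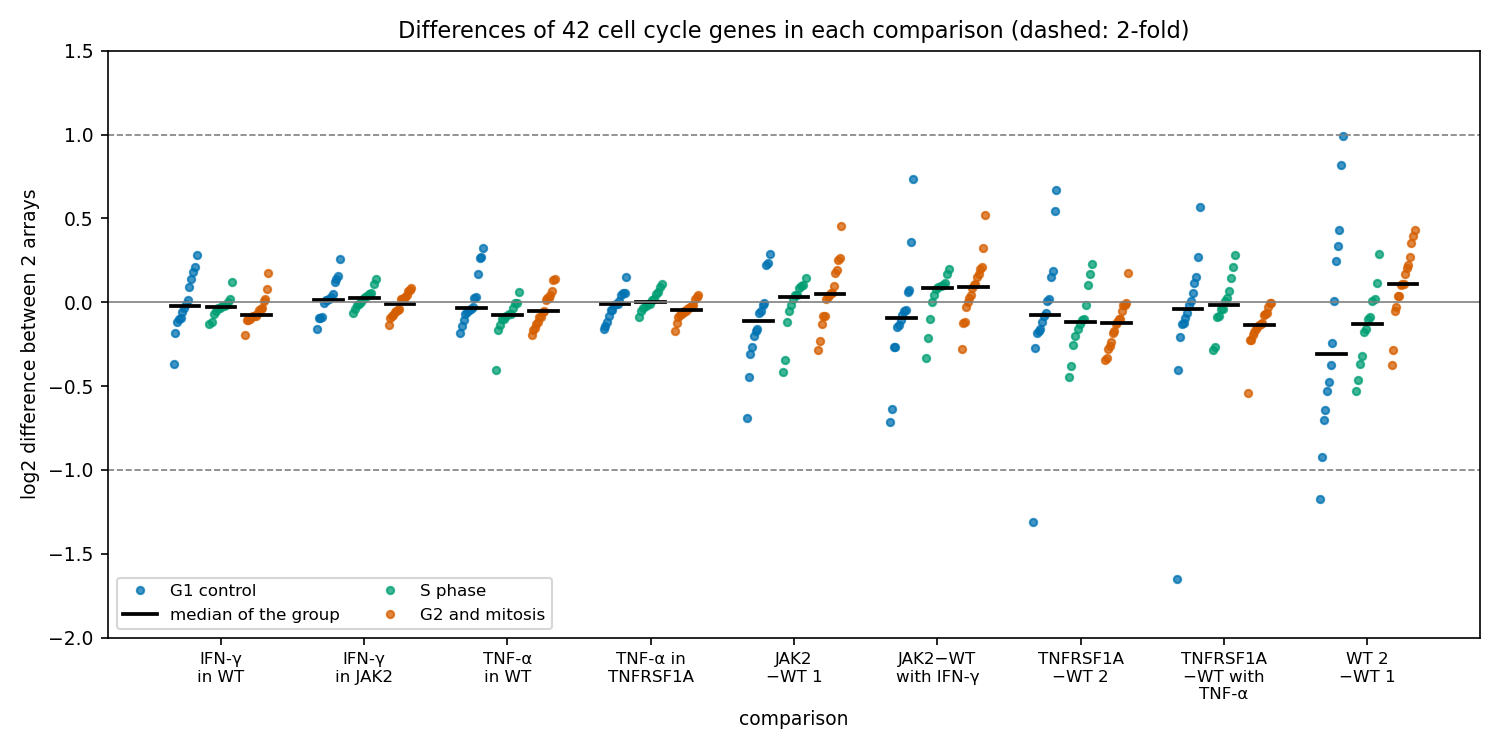
Log2 difference of each of the 42 compared cell cycle genes (points, coloured by role group; black bars are group medians) in the 9 comparisons between 2 arrays; dashed lines mark 2-fold. The 4 cytokine comparisons on the left stay within -0.41 and 0.32, while the G1 members spread to -1.65 between mutant and WT and from -1.17 to 0.99 between the unstimulated WT arrays.

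CDKN1A, whose product p21 inhibits cyclin-dependent kinases, had the highest value of all members in WT cells with either cytokine. Its log2 level was 10.16 in WT replicate 1 and 10.44 with IFN-gamma, a difference of 0.28, and 10.59 in WT replicate 2 and 10.91 with TNF-alpha, a difference of 0.32. These were below 2-fold, and 5.15% and 4.25% of all genes rose at least as much. In the mutants the level was 9.89 and 9.80 without and with IFN-gamma, and 10.47 and 10.51 without and with TNF-alpha. Another CDKN1A probe set gave 0.24 and 0.30 in WT, and 0.34 in the JAK2 mutant and 0.07 in the TNFRSF1A mutant, so the probe sets differ in sign for the JAK2 mutant. Against the other WT array the first probe set gave -0.15 with IFN-gamma and 0.75 with TNF-alpha. Whether the WT and mutant responses differ was not tested.

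The other responses were small too. CCND3, cyclin D3, had the lowest value with IFN-gamma in WT, -0.37, where 1.25% of all genes fell at least as far, and -0.04 with TNF-alpha. For CCND2, cyclin D2, the values were 0.21 and 0.26. Against the other WT array both genes turned sign with IFN-gamma, to 0.81 for CCND3 and -0.78 for CCND2. MCM5, a subunit of the replicative helicase, had -0.41 with TNF-alpha, but its single probe set lay at 5.96 to 6.37, next to the background range. CDK1, the kinase that drives entry into mitosis, came to 0.08 and -0.20. The counts rest on the WT array taken as control: with the arrays exchanged, CCNE2 passed 2-fold with IFN-gamma (1.11, beside 2.35% of all genes) and CCND2 and CCND3 with TNF-alpha (1.25 and -1.21, beside 2.11%). PLK1, a mitotic kinase, had -0.20 and -0.17, and the proliferation marker gene MKI67 had 0.17 and 0.14, although 4 of its 5 other probe sets were below 0 with IFN-gamma, at -0.17 to -0.08.

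G1 members differed most between the unstimulated WT arrays. Between the unstimulated WT arrays, replicate 2 minus replicate 1, 1 member differed 2-fold and 6 differed 1.5-fold, all 6 of them among the 14 G1 members; 1.99% and 11.2% of all genes did so. The median size of the difference was 0.50 in G1, 0.17 in S phase and 0.19 in G2 and mitosis, beside 0.21 over all genes. Signed medians were -0.31, -0.13 and 0.11, beside -0.04. Over all 8 arrays, the range from lowest to highest level had a median of 0.70 for G1 members, 0.42 for S phase and 0.41 for G2 and mitosis, beside 0.50 over all genes.

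The D-type cyclin genes CCND2 and CCND3, which act at the same step of G1, had differences of opposite sign between the unstimulated WT arrays. The level of CCND3 was 8.99 on the array of WT replicate 1, 8.63 after IFN-gamma, 9.23 and 9.36 in the JAK2 mutant without and with IFN-gamma, 7.82 in WT replicate 2, 7.78 in WT with TNF-alpha, and 8.49 and 8.35 in the TNFRSF1A mutant without and with TNF-alpha. The difference of WT replicate 2 from replicate 1 was -1.17, and all 4 arrays of the TNF-alpha experiment lay below all 4 of the IFN-gamma experiment. The second CCND3 probe set lay in the background range on all arrays. CCND2 stood at 8.67 on the array of WT replicate 1, 8.88 after IFN-gamma, 8.89 and 8.94 in the JAK2 mutant, 9.66 in WT replicate 2, 9.92 in WT with TNF-alpha, and 8.35 and 8.27 in the TNFRSF1A mutant. The WT arrays of the TNF-alpha experiment were the highest and its mutant arrays the lowest, so that WT replicate 2 was 0.99 above replicate 1, just under 2-fold; loess or a further quantile normalization moved it to 1.02 and 1.01. The other CCND2 probe sets, in the background range on 2 and on all 8 arrays, gave 0.46 and 0.58 for that pair.

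**Figure D2:**
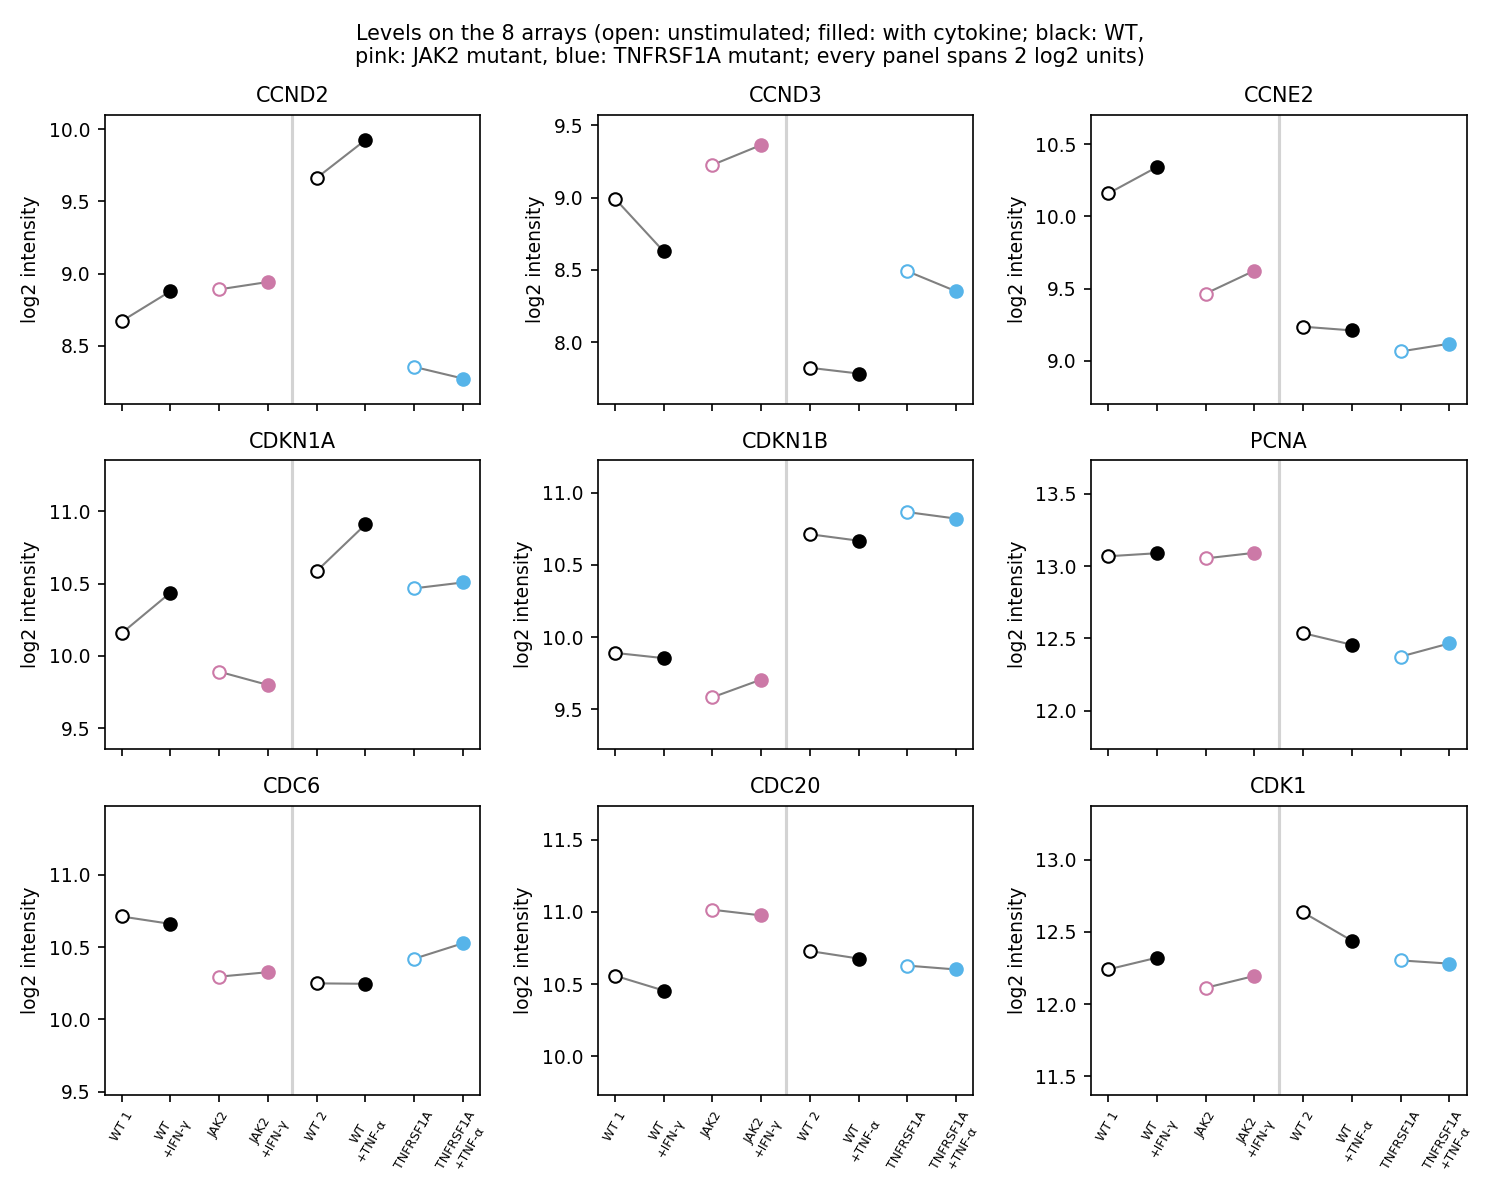
Log2 intensity of 9 cell cycle genes on the 8 arrays (open points unstimulated, filled with cytokine; black WT, pink JAK2 mutant, blue TNFRSF1A mutant; lines join a sample to its stimulated partner, and the vertical line separates the experiments; each panel spans 2 log2 units). CCND2 is highest in WT of the TNF-alpha experiment, at 9.66 and 9.92, and CCND3 lowest there, at 7.82 and 7.78.

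Cyclin E and the kinase inhibitors also differed between the experiments. CCNE2, cyclin E2, had levels of 10.16 on the array of WT replicate 1, 10.34 after IFN-gamma, 9.47 and 9.62 in the JAK2 mutant, 9.24 in WT replicate 2, 9.21 in WT with TNF-alpha, and 9.06 and 9.12 in the TNFRSF1A mutant. It was lower in WT replicate 2 (difference -0.92), and its second probe set gave -1.03. CCNE1, cyclin E1, had -0.64 and the kinase gene CDK6 -0.70. CDKN1B, which encodes p27, went the other way, with a difference of 0.82 between the WT arrays; its 4 arrays of the IFN-gamma experiment spanned 9.58 to 9.89 and its 4 of the TNF-alpha experiment 10.67 to 10.87. CDKN1A had 0.43 and RB1 0.34 for the WT pair. E2F1 was near level on every array, from 7.36 to 7.48, while E2F2 and E2F3 had -0.48 and -0.53.

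Among S phase members PCNA, the sliding clamp of DNA polymerase, differed most. Its levels were 13.07 on the array of WT replicate 1, 13.09 after IFN-gamma, 13.05 and 13.09 in the JAK2 mutant, 12.54 in WT replicate 2, 12.46 in WT with TNF-alpha, and 12.37 and 12.47 in the TNFRSF1A mutant. The 4 arrays of the IFN-gamma experiment lay close together and wholly above the other 4; the difference between the WT arrays was -0.53, with 0.68 from a dim second probe set. CDC6, a loader of the replicative helicase, was at 10.71, 10.66, 10.30 and 10.33 in WT replicate 1, stimulated WT and the JAK2 mutant without and with IFN-gamma, and at 10.25, 10.25, 10.42 and 10.53 in the TNF-alpha experiment in the matching order. Its second probe set gave 0.18 in place of -0.46 for the WT pair. Of the helicase genes, MCM2 had 0.01, MCM3 -0.37, MCM4 -0.18, MCM5 0.29, MCM6 -0.10 and MCM7 -0.32; of the 4 MCM7 probe sets 3 were negative and the fourth had 0.42.

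Counted over all arrays, the 4 of the TNF-alpha experiment lay wholly below the 4 of the IFN-gamma experiment for 15 of the 42 members (35.7%, beside 22.5% of all genes) and wholly above for 5 (11.9%, beside 17.3%). This count was chosen after its values were seen. The 15 were CCND3, CCNE1, CCNE2, CDK4, CDK6, CDC25A and E2F3 of G1, CDC45, MCM3, MCM4, MCM7, PCNA and TYMS of S phase, and CDC25B and BIRC5 of G2 and mitosis. The 5 were CDKN1A, CDKN1B, RB1, BUB1 and TTK. The 2 experiments hold different mutants and cytokines besides the WT cells, and the labels name no batch, so experiment, mutant and cytokine cannot be told apart in this count. The ratio of the 3' to the 5' actin probe sets, a reading of RNA integrity, was 4.41 in WT replicate 1 and 3.27 in replicate 2, and its part in the differences was not tested. For GAPDH the same kind of ratio was 1.21 and 1.09 on these arrays, and ran from 1.09 to 1.27 over the 8 arrays. In an additive limma fit over the 8 arrays, with terms for experiment, mutant and cytokine and no interaction, the term for experiment was called at an adjusted p under 0.05 for 18 of 42 members (5 higher and 13 lower in the TNF-alpha experiment) beside 28.9% of all genes; the lowest adjusted p were 0.0057 for CCNE2 and 0.0068 for CDKN1B. The spread in that fit comes from how far mutant and cytokine effects fail to add up within each experiment. No repeated array stands behind it. Its p therefore does not hold the spread between repeated arrays or between repeats of an experiment. This applies to its mutant terms too.

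**Figure D3:**
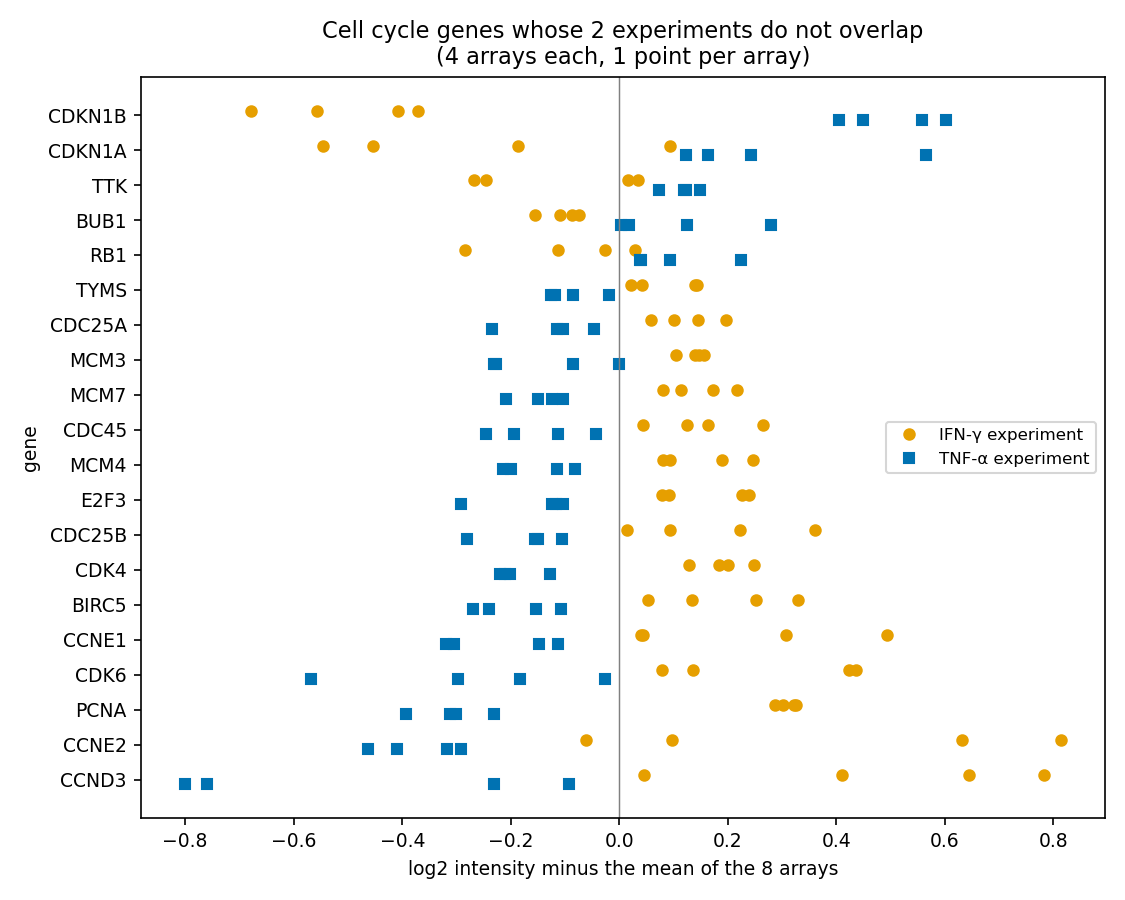
Log2 intensity minus the gene's mean over the 8 arrays, 1 point per array, for the 20 members whose experiments do not overlap (circles IFN-gamma experiment, squares TNF-alpha experiment, 4 arrays each). PCNA, CCNE2 and CCND3 lie lower in the TNF-alpha experiment and CDKN1B higher, by 1.01 on average for CDKN1B.

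The second question was whether the mutants differed from WT. In the TNFRSF1A mutant 1 of 42 members changed 2-fold, CCND2, at -1.31 without TNF-alpha (beside 0.98% of all genes) and -1.65 with it (beside 1.22%). Of all genes, 0.737% changed 2-fold in the same direction in both pairs, which share no array. At 1.5-fold CCND3 joined it without TNF-alpha, so 2 members passed beside 3.83% of all genes, and CCND2 alone passed with TNF-alpha, beside 3.76%. The additive limma fit gave CCND2 a difference of -1.48 with an SE of 0.10 and an adjusted p of 0.0042 (Benjamini-Hochberg over 11529 genes). It called no other member, beside 6.8% of all genes. As stated above, no repeated array stands behind that SE and p. The limma fit of 7 conditions, whose spread comes from the unstimulated WT arrays alone, did not call CCND2: it gave -0.81 without TNF-alpha, against the mean of both WT arrays, and -1.65 with it, with an adjusted p of 1.00 for each. The other, dimmer probe sets of CCND2 gave -0.86 and -0.93, and -0.50 and -0.68. The size rests on the control: against WT replicate 1, where CCND2 was low, the unstimulated mutant was at -0.32, and against the mean of both WT arrays at -0.81; against replicate 1 CCNE2 passed 2-fold in its place (-1.09, beside 1.7% of all genes). Both mutant arrays nevertheless lay below all 4 WT arrays. CCND3 was higher in the mutant, at 0.67 and 0.57, but at -0.50 against WT replicate 1, and CDK6 had 0.54 and 0.11.

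Small negative values ran through the mitotic genes of the TNFRSF1A mutant. Of the 16 members of G2 and mitosis, 15 lay below 0 without TNF-alpha and 16 with it, beside 42.2% and 47.3% of all genes, and 0 of them reached 2-fold or 1.5-fold. Some of these values were next to 0: PLK1 had -0.003 and -0.007, and CDC25B -0.005 with TNF-alpha. The counts include MKI67, whose probe sets differ in sign. Their medians were -0.12 and -0.13, where all genes had 0.04 and 0.01. The cyclin gene CCNA2 had -0.35 and -0.20, CCNB1 -0.24 and -0.22, and the spindle checkpoint kinase gene BUB1 -0.26 and -0.12. CDK1 stood at 12.63 in WT replicate 2, 12.44 in WT with TNF-alpha and 12.30 and 12.28 in the mutant, and at 12.24, 12.32, 12.11 and 12.19 in WT replicate 1, stimulated WT and the JAK2 mutant without and with IFN-gamma; a second CDK1 probe set gave -0.46 and -0.27 for the mutant in place of -0.33 and -0.16. CDK1 in the mutant thus lay within the span of the 4 WT arrays. Among 29 further genes of G2 and mitosis, such as kinesins and kinetochore genes, the medians were -0.13 and -0.14, with 23 and 24 below 0. Against WT replicate 1 the 16 members had a median of 0.02 with 7 below 0, while the 29 further genes kept a median of -0.15 with 24 below 0. Genes of one phase share cells and arrays and are not replicates. In bulk RNA, fewer cells in a phase and less RNA per cell cannot be told apart.

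MKI67, the gene of the proliferation antigen Ki-67, had -0.28 and -0.54, the latter the lowest of the 16 with TNF-alpha. Its levels were 10.15, 10.32, 10.40 and 10.43 in the IFN-gamma experiment (WT, WT with IFN-gamma, mutant, mutant with IFN-gamma) and 10.58, 10.72, 10.30 and 10.18 in the TNF-alpha experiment. Its probe sets differed in sign. The 5 others gave 0.01 to 0.32 without TNF-alpha and -0.41 to 0.20 with it, and for the WT pair, where the first gave 0.43, they gave -0.59 to -0.22. No direction is therefore given for MKI67.

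S phase members of the TNFRSF1A mutant had medians of -0.12 and -0.02, with 9 and 6 of 12 below 0. RRM2, a subunit of ribonucleotide reductase, which makes the building blocks of DNA, stood at 11.92 and 11.75 in WT of the TNF-alpha experiment and 11.47 and 11.49 in the mutant, and at 11.80, 11.68, 11.95 and 11.88 in the IFN-gamma experiment. The differences were -0.45 and -0.27, with -0.20 and -0.14 from a second probe set, and RRM1, the other subunit, had -0.38 and -0.29. Both genes lay lower in the mutant than on any of the 4 WT arrays. In all, both TNFRSF1A mutant arrays lay below all 4 WT arrays for 16 of 42 members (38.1%, beside 12.4% of all genes), 6 of them in G1, 6 in S phase and 4 in G2 and mitosis. They lay above for 1 (CDKN1B, 2.38%, beside 15.2%). WT arrays of both experiments enter these counts, so a difference between the experiments enters them too. Of those below, CCNE1, CCNE2, CDK4, CDC25A, CDC45, MCM4, TYMS and BIRC5 were lower on all arrays of the TNF-alpha experiment. CCNE2 had -0.92 between the unstimulated WT arrays, but -0.17 and -0.09 between mutant and matching WT. CDKN1B had 0.82 between those WT arrays, but 0.15 and 0.15 between mutant and matching WT. The actin ratio was 4.51 and 5.53 in the mutant and 3.27 and 4.81 in the matching WT arrays, and its part was not tested.

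**Figure D4:**
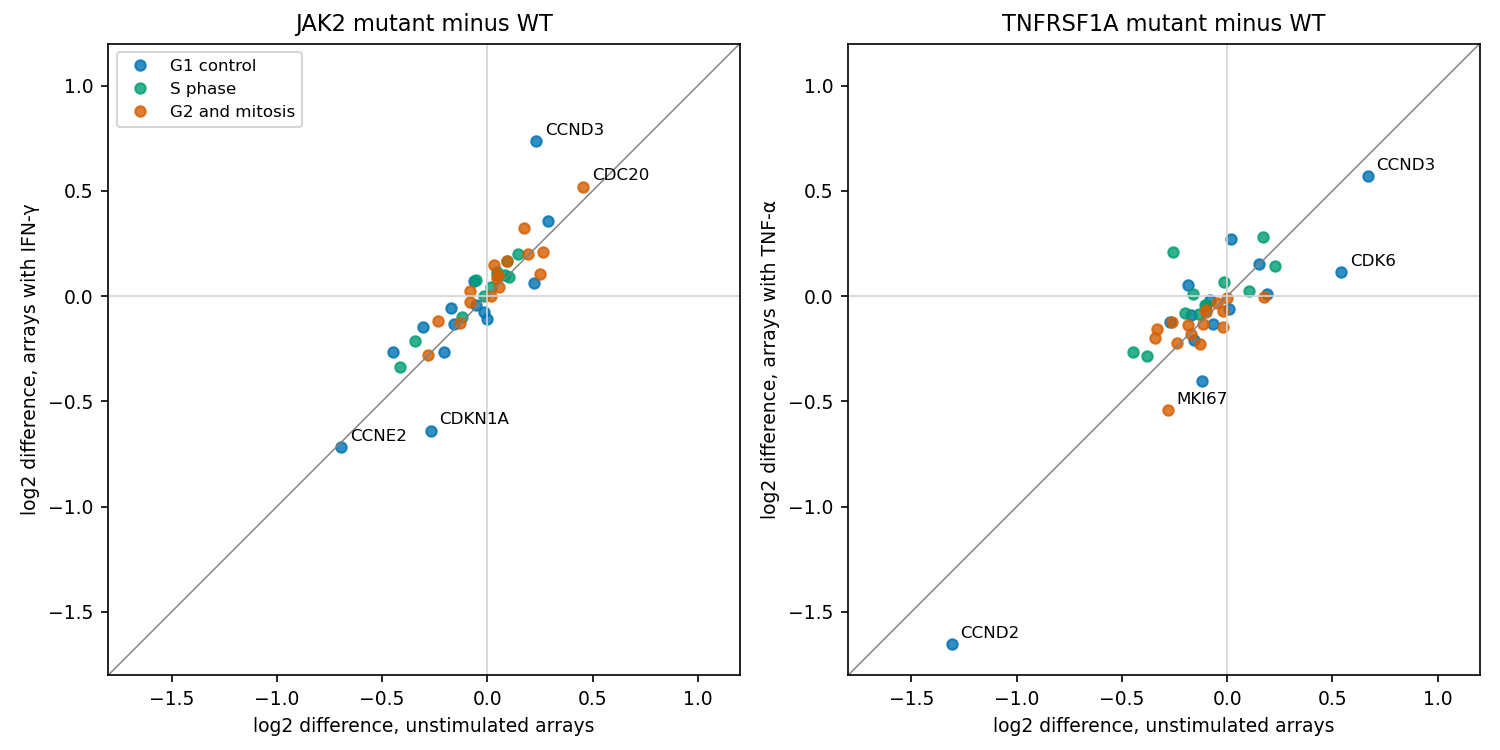
Log2 difference of mutant minus WT for the 42 members on the unstimulated arrays (x axis) and on the arrays with cytokine (y axis), for the JAK2 mutant (left) and the TNFRSF1A mutant (right); the diagonal marks equal values, and genes at 0.5 or more in either pair are named. CCND2 lies apart in the TNFRSF1A mutant at -1.31 and -1.65, and CCNE2 is lowest in the JAK2 mutant at -0.69 and -0.72.

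In the JAK2 mutant 0 of 42 members changed 2-fold in either pair, where 2.13% of all genes did so without and 3.02% with IFN-gamma. The member values of the 2 pairs, which share no array, correlated across the 42 genes with Pearson's r of 0.88 and a Spearman rho of 0.93, and 38 of 42 had the same sign; over all genes r was 0.86 and rho 0.75, and 77.5% had the same sign. For the TNFRSF1A mutant r was 0.85 and rho 0.72, with 36 of 42 of the same sign, beside 0.76, 0.59 and 72% over all genes. Genes are not independent replicates in such a correlation. CCNE2, at -0.69 and -0.72, was the only member past 1.5-fold in both pairs, beside 4.58% of all genes. Without IFN-gamma it was the only 1 of 42 past 1.5-fold (beside 6.16% of all genes), and with IFN-gamma CCND3 and CDKN1A made it 3 (beside 8.35%). Against WT replicate 2, in which CCNE2 was low, the unstimulated JAK2 mutant had 0.23.

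Group medians of the JAK2 mutant lay on both sides of 0. The medians of the 16 members of G2 and mitosis were 0.05 and 0.09, those of S phase 0.03 and 0.09 and those of G1 -0.11 and -0.09, beside 0.03 over all genes in each pair. CDC20, the activator of the anaphase-promoting complex, had the highest values of its group without reaching 2-fold, at 11.02 and 10.98 in the mutant against 10.56 and 10.46 in WT, a difference of 0.46 and 0.52. It stood at 10.73, 10.68, 10.63 and 10.60 in the TNF-alpha experiment, so both JAK2 mutant arrays were above all others. A second probe set gave 0.18 and 0.41 and another stayed in the background range. PLK1 had 0.17 and 0.33, while TTK, a spindle checkpoint kinase gene, had -0.28 and -0.28.

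In G1, CCND3 had 0.23 and 0.74, CDK6 0.29 and 0.36, CCNE1 -0.45 and -0.27, CDKN1A -0.27 and -0.64 and CDKN1B -0.31 and -0.15. Against WT replicate 2, CCND3 and CDKN1B passed 2-fold, at 1.40 and -1.13, where 6.55% of all genes did so. The additive limma fit called 9 of 42 members for the JAK2 mutant, 3 higher (CCND3, CDC20 and PLK1) and 6 lower (CCNE1, CCNE2, CDC6, CDKN1A, RRM1 and TTK), beside 26% of all genes, a larger share than among the members. The limma fit of 7 conditions called 0 of these, with a lowest adjusted p over the members of 0.83 without and 1.00 with IFN-gamma; 0 members had an unadjusted p under 0.05 in it. Of the genes called in the additive fit, CDC6 had -0.06 and -0.19 from its second probe set, in place of -0.42 and -0.33. A second PLK1 probe set gave 0.05 and 0.14 in place of 0.17 and 0.33. Both mutant arrays lay above all 4 WT arrays for 11 of 42 members (26.2%, beside 29.1%) and below for 7 (16.7%, beside 20.1%). WT arrays of both experiments enter these counts as well. The actin ratio was 5.74 and 6.47 in the JAK2 mutant and 4.41 and 4.81 in the matching WT arrays, and its part was not tested.

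**Figure D5:**
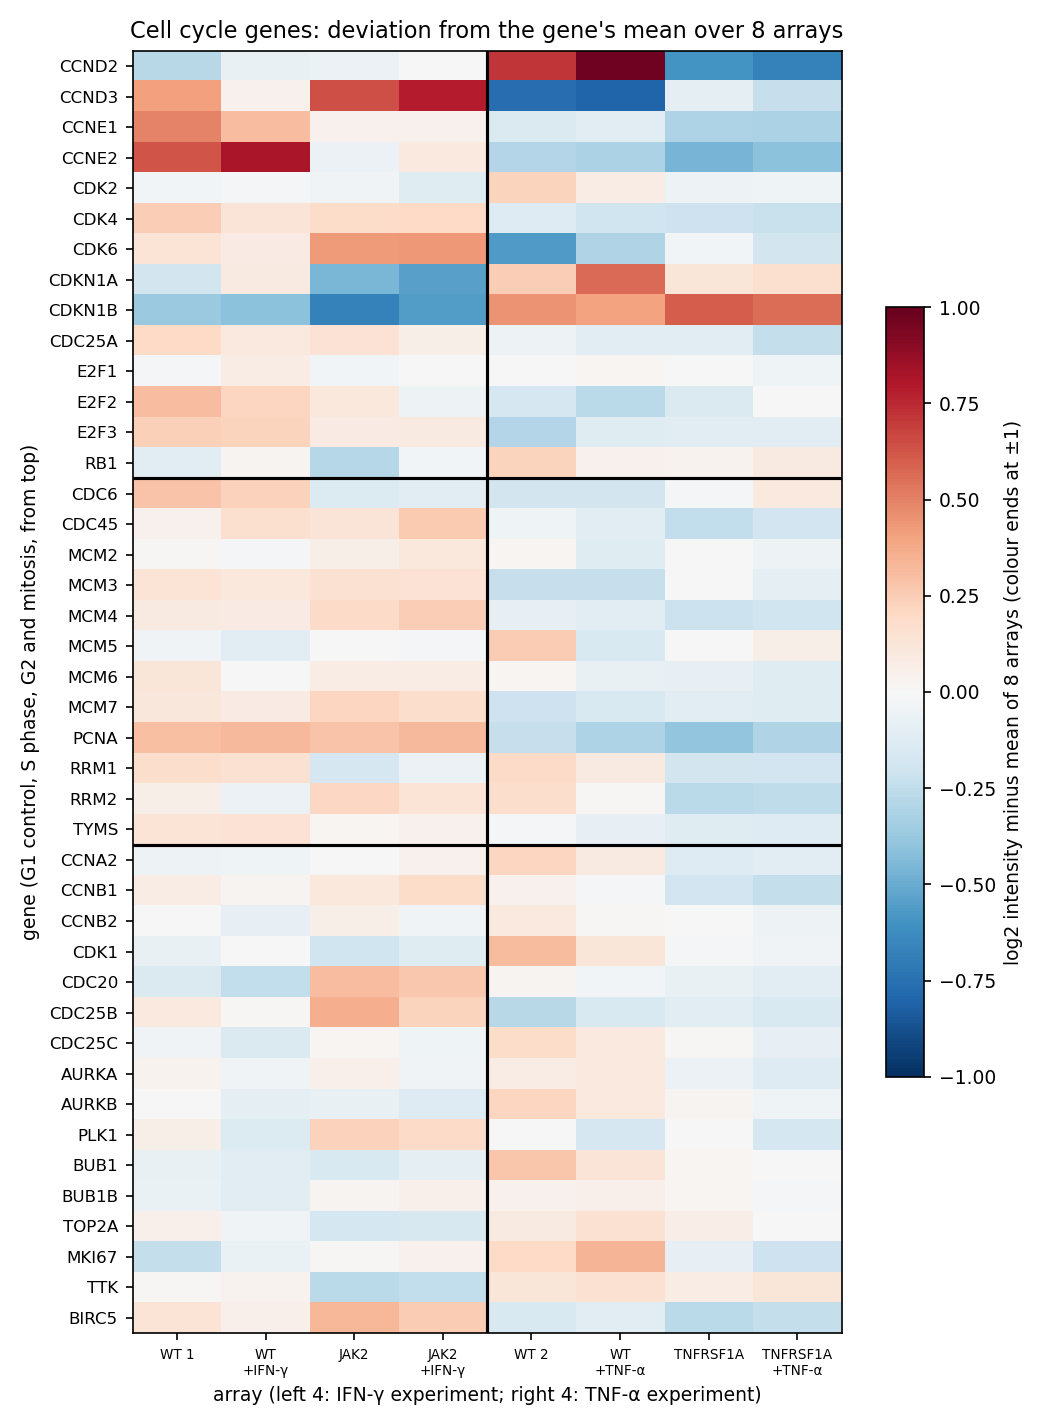
Log2 intensity minus the gene's mean over the 8 arrays for the 42 members (rows: G1 control, S phase, G2 and mitosis from the top; columns: arrays, the IFN-gamma experiment on the left; the colour scale ends at -1 and 1). The wide differences lie in the G1 rows CCND2, CCND3, CCNE2, CDKN1A and CDKN1B, and columns of the same cells without and with cytokine look alike.

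Of 81 further cell cycle genes and p53 targets, 78 were compared. None of them changed 2-fold with a cytokine; FAS, the death receptor gene and a p53 target, had the highest value with IFN-gamma in WT, 0.59, with 0.46 for TNF-alpha, and the kinase inhibitor gene CDKN2B the highest with TNF-alpha, 0.54. In the mutants FAS had -0.03 and -0.05. Between the WT arrays 3 were 2-fold higher in replicate 2, CDKN1C by 1.18, FAS by 1.05 and GADD45A by 1.02, and 1 was lower, the DNA methylation cofactor gene UHRF1 by -1.21, beside 0.954% and 1.03% of all genes. CDKN1C encodes the kinase inhibitor p57. The 26 further S phase genes had a median of -0.17 for that pair with 21 below 0, and the 9 p53 targets one of 0.60 with 8 above 0. All genes had a median of -0.04, with 55.7% below 0 and 44.2% above. In the JAK2 mutant 1 of the 78 passed 2-fold without IFN-gamma, the p53 target TP53INP1 at -1.17, and 0 passed with it, where TP53INP1 had -0.57. Of all genes, 2.13% and 3.02% did so. In the TNFRSF1A mutant 0 passed, beside 0.98% of all genes without and 1.22% with TNF-alpha.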

How the data were processed

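RNA of 8 KBM7 samples was hybridised to 1-colour Affymetrix arrays, 1 array per sample, and grouped by genotype and cytokine. What the authors deposited is an RMA-normalized intensity per probe set on a linear scale; the submitters' processing notes name RMA and Affymetrix Expression Console 1.1; the linear scale was inferred from the values, and log2 was taken here without a pseudocount (lowest intensity 6.72). RMA brings the arrays' distributions close together, so a shift of most genes would not be seen. Array medians ran from 63.9 to 66.9.

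Probe sets were named from the platform annotation, with symbols updated by gene identifier against RefSeq GRCh38.p14: 44994 had 1 gene, 1832 several and 2569 were not listed. Where several probe sets name a gene alone, that of the highest mean stands for it; genes whose highest log2 value was at least 6 were compared (11529 of 18132). Arrays were compared by subtracting log2 values, with 2-fold as the rule. Limma 3.58.1 (R 4.3.3) was fitted to the 8 arrays with experiment, mutant and cytokine terms and no interaction (2 residual degrees of freedom), and to the 7 conditions (1 residual degree of freedom); both assume that single arrays vary alike, and adjusted p is by Benjamini-Hochberg. The first of these fits and the fold rule were tested on simulated data, and the fit of 7 conditions was not. Simulated noise for the first fit was independent and of equal size for all genes, without interaction. That test therefore cannot check the p of this fit on the real arrays. Values on every array are given for members past 2-fold and the 3 members with the largest differences in each phase group. CDKN1A, CDKN1B, CCNE1 and other members were named after their values were seen. Members, lists and tests were chosen with earlier results of these data known. Alternatives were other fold thresholds, level filters, normalizations, probe set rules and WT controls.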

Additional observations from a re-analysis of the deposited data

How the results depend on the processing

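The counts of members at 2-fold were small. At 1.5-fold the JAK2 mutant had 1 member without and 3 with IFN-gamma and 1 in both pairs, the unstimulated TNFRSF1A mutant had 2 and the WT pair had 6, where the 2-fold rule gave 0, 0, 0, 1 and 1. At 3-fold the unstimulated TNFRSF1A mutant, its count over both pairs and the WT pair had 0 members each. Loess and a further quantile normalization gave 2 members for the WT pair, as CCND2 passed 2-fold beside CCND3. With the mean of all probe sets the counts of the WT pair, of the unstimulated TNFRSF1A mutant and of that mutant over both pairs were 0, since dim probe sets entered the mean; CCND3 then had -0.45 in the WT pair and CCND2 -0.89 in the unstimulated mutant. With the other WT array as control, members past 2-fold were 1 for IFN-gamma in WT (CCNE2, 1.11), 2 for TNF-alpha in WT (CCND2 1.25 and CCND3 -1.21), 2 for the JAK2 mutant (CCND3 and CDKN1B) and 1 for the TNFRSF1A mutant (CCNE2 at -1.09 in place of CCND2). With the mean of both WT arrays the TNFRSF1A mutant had 0. The limma fit of 7 conditions called 0 members in all 8 comparisons run, so CCND2 lost its call in the TNFRSF1A mutant, at -0.81 without and -1.65 with TNF-alpha; 1 member in 1 comparison had an unadjusted p under 0.05. The additive limma fit called 9 members for the JAK2 mutant, and CCND2 alone for the TNFRSF1A mutant. The other 86 recomputed counts stayed within 1.5 times. Among recomputed differences of the 9 members described on every array, 547 kept their side of 2-fold, 7 newly passed it and 4 no longer did. Level filters and the removal of probe sets ending in _x_at could not move these members, and each such setting gave 81 of those kept. With WT replicate 1 left out, 16 kept their side and 2 newly passed. With WT replicate 2 left out, 14 kept it, 3 newly passed and 1 no longer did. No difference past 2-fold turned its sign. Some smaller ones did so with the other WT array as control. CCND3 for IFN-gamma in WT went from -0.37 to 0.81, and CCNE2 in the unstimulated JAK2 mutant from -0.69 to 0.23. The cause of the other moves was not tested. No paired analysis was possible because the groups compared share fewer than 2 replicate numbers: each number of the labels joins 1 unstimulated WT array to 1 stimulated WT array, and the mutant arrays carry none. Signals near the background range limit CCND1 and MCM5.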
